A study of Homo sapiens with 12 samples.

Results

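The proteasome genes were followed in IMR5, an established human neuroblastoma cell line with MYCN amplification, by total RNA sequencing. The members were the genes whose symbol is PSM followed by a letter from A to F and a number. The rule found 39 of the 20029 genes in the selinexor table and the same 39 among the 19610 genes in the knockdown table. Of these, 15 encode the 20S core, 19 the 19S regulatory particle or its assembly, 4 the activators and 1 the inhibitor PI31. A selinexor group was grown with 100 nM selinexor, an inhibitor of the nuclear export receptor XPO1 (exportin 1), for 24 h, beside a DMSO group for which no duration is given. An XPO1 siRNA group received 1 siRNA against XPO1 (number 10) by nucleofection and a control siRNA group a negative control, and RNA was taken after 72 h. All 4 groups held 3 libraries of this 1 line, with no further treatment named, so agent, delivery and time differ together between the comparisons. PSMA8, PSMB8, PSMB9, PSMB11 and PSMD5, which the rule would also match, had no row under these symbols in either table. Their levels are therefore not known here.

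The proteasome is the protease that degrades ubiquitin-tagged proteins in the cytosol and nucleus. Its 20S core is a barrel of outer alpha rings (PSMA genes), which gate the entrance, and inner beta rings (PSMB genes), which hold the active sites. The 19S particle caps the barrel: a ring of ATPases (PSMC genes) unfolds substrates, further base subunits bind ubiquitin, and a lid removes the ubiquitin chain (PSMD genes). Other caps, PA28 and PA200, are made from the PSME genes, and PI31 is the product of PSMF1. MYCN drives cell growth and division, and dividing cells depend on the proteasome for the turnover of cell cycle regulators.

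Values are the authors' normalised read counts, scaled by a size factor for each library and comparable only within a table. Fold changes are differences of group means of log2(value + 1), given with the standard error (SE) from limma. The adjusted p is limma's with Benjamini-Hochberg adjustment over all genes tested, 18128 for selinexor and 17616 for knockdown. A gene was called at an adjusted p under 0.05. All 39 members passed the filter of a mean of 10 or more. Whether replicates are separate cultures is not stated, so the p-values weigh a difference against a spread between libraries that may be technical. In bulk RNA, fewer cells of a type and less RNA per cell cannot be told apart.

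Estimated depth was 26.8 to 55.8 M reads per library. It was lower with selinexor (26.8 to 33.8 M) than with DMSO (39.5 to 40.9 M), and lowest in selinexor replicate 1. Control siRNA libraries had 40.6 to 54.0 M and XPO1 siRNA libraries 33.5 to 55.8 M. XPO1 checked the labels: it read 18568, 18950 and 18908 with control siRNA and 4260, 4377 and 4397 with XPO1 siRNA (log2 change -2.11, SE 0.03, adjusted p = 2.91e-14), while with selinexor its 15544 to 22513 spanned the 17886 to 18899 of DMSO. Selinexor replicate 1 stood apart from its group (r of log2 values 0.974 and 0.977 with replicates 2 and 3, against 0.991 between those), so the counts and medians for selinexor, and the genes whose call or direction rests on it, are given with and without it. RN7SL genes, which encode the RNA of the signal recognition particle, took 12.6% to 15.96% of the normalised counts of selinexor libraries, 9.40% to 9.72% of DMSO libraries and 10.8% to 13.1% of the other libraries. Their part in the results was not tested. Adrenergic neuroblastoma markers summed to 43176 to 65477 per library of the selinexor table. Of 13 markers of leukocytes, endothelium and fibroblasts, the 6 with a row summed to 716 to 828 with DMSO and 726 to 1746 with selinexor, nearly all of it COL1A1 at 675 with DMSO and 987 with selinexor. In the knockdown table the 5 with a row summed to 1018 to 1234 with control siRNA and 930 to 967 with XPO1 siRNA.

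Promoter sequences are shown for 5 members that the results turn on: PSMD11, a lid subunit among the largest falls under selinexor, PSMD14, the lid enzyme that cuts off ubiquitin, PSMB3, with the largest fall under knockdown, PSMD12, a lid subunit lower with 1 agent, and PSME1, which rose. Each is the 250 bases before the transcription start, 5′ to 3′ on the gene's strand, from RefSeq on GRCh38.p14. Capitals mark the letters of motifs searched on both strands: CCAAT (the CCAAT box bound by NF-Y), TGACNNNGC (the core of the antioxidant response element, bound by NFE2L1 and NFE2L2), GGGCGG (GC box), CCGGAAG (ETS site) and CACGTG (E-box, the element bound by MYC proteins).
PSMD11, chr17:32444260-32444509 (+ strand): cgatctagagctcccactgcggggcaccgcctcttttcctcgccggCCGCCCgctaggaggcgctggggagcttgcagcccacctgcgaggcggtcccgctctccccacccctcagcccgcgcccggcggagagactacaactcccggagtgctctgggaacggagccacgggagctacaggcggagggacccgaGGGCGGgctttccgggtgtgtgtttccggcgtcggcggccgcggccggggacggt
PSMD14, chr2:161308175-161308424 (+ strand): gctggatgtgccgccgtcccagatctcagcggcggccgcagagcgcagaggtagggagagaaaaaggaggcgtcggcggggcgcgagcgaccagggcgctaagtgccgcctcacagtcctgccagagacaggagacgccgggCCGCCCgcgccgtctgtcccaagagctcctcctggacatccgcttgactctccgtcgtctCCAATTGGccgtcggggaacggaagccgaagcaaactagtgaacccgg
PSMB3, chr17:38752491-38752740 (+ strand): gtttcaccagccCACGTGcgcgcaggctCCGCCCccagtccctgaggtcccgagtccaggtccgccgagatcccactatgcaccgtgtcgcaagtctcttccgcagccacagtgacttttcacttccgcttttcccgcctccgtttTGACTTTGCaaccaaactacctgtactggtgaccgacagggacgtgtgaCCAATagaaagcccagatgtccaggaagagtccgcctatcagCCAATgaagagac
PSMD12, chr17:67366578-67366827 (- strand): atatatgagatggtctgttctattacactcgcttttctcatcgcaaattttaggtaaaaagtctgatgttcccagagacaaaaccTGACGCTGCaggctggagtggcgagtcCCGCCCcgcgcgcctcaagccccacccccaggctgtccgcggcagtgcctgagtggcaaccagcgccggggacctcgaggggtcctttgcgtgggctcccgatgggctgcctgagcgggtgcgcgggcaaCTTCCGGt
PSME1, chr14:24135944-24136193 (+ strand): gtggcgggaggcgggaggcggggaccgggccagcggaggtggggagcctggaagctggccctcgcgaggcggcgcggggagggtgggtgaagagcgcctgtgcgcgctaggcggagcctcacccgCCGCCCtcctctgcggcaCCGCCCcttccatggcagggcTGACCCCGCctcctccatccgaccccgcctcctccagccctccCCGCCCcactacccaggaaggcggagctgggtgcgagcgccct
PSMD11 held a GC box 204 and 55 bases before the start and none of the other motifs. PSMD14 held CCAAT 48 bases before the start, in a run of letters where CCAAT on one strand overlaps CCAAT on the other, and a GC box. PSMB3 held CCAAT 55 and 13 bases before the start, the antioxidant core TGACTTTGC at 104, a GC box and an E-box at 238. PSMD12 held the antioxidant core TGACGCTGC at 165, a GC box and an ETS site 8 bases before the start. PSME1 held the core TGACCCCGC at 86 and 3 GC boxes.

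RefSeq start sites were matched for 34 of the 39 members (41 windows), all but PSMA7, PSMB1, PSMB6, PSMB7 and PSMD4. CCAAT was in 39.0% of member windows and in 32.0% of the 35116 windows of all genes. The antioxidant core was in 22.0% of member windows against 10.9%, the ETS site in 22.0% against 8.52%, the GC box in 63.4% against 42.6% and the E-box in 7.32% against 6.34%. The 9 members with the antioxidant core were PSMA4, PSMB3, PSMC5, PSMD3, PSMD9, PSMD12, PSME1, PSME2 and PSME4, which include the member that rose as well as members that fell. A match describes letters only, and its absence says only that they are not in this window.

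The genes lay on 15 chromosomes, with 7 each on chromosomes 14 and 17. PSMD11 is at chr17:30771279-30810337 and PSMD12 at chr17:65334032-65362744 in hg19, the build of the deposited coordinates. PSMB3 is at chr17:36908989-36920485, PSMD14 at chr2:162164549-162268229 and PSMD1 at chr2:231921578-232037542. PSME1 (chr14:24605367-24608177, + strand) and PSME2 (chr14:24612574-24616780, - strand) encode the subunits of PA28 alpha-beta and lie side by side. Reads of some members cannot be fully assigned, since strand use in the counting is not given in the sources used here. For selinexor and for knockdown alike, 12 members overlapped another gene whose level was 10% or more of their own. The overlap is on the same strand for PSMA1 with COPB1, PSMA6 with KIAA0391, PSMB10 with CTC-479C5.12 and PSMD2 with EIF2B5, and on opposite strands for 8 members, among them PSMC5 with FTSJ3, PSME3 with BECN1 and PSME2 with RNF31. PSMC1 is also uncertain: its retrocopy PSMC1P1 was listed at 345% of its DMSO level, and with the copies added its changes were -0.56 with selinexor and -0.24 with knockdown, against -0.47 and -0.27 alone.

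Per kilobase of transcript (GENCODE 29 median length), the 20S genes were the most abundant in control cells. Their median level with DMSO was 4662 normalised counts per kilobase, against 2215 for the 19S genes and 826 for the 4 activators. PSMB4, a structural beta subunit, was highest at 12461 ± 554 (SD, n = 3), and PSMB10, the interferon-type counterpart of the catalytic PSMB7, was lowest at 283 ± 16.9. PSMD4, the ubiquitin receptor, was the highest 19S gene at 7681 ± 323. PSMB1 (8762 ± 183), PSMA4 (8460 ± 66.5) and PSMA7 (8137 ± 172) followed PSMB4. Among these neighbours in the order, the ranges of mean ± SD overlapped for PSMA7 and PSMD4.

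With selinexor the proteasome genes fell nearly as a set. Of the 39 members 33 were called lower (84.6%) and 1 higher, where 26.3% of all genes were called lower and 22.9% higher. Among genes with a mean of 1000 or more, the level of most members, 43.8% were called lower and 14% higher. The median member changed by -0.59 on the log2 scale (1.51-fold lower), against -0.01 for all genes and -0.23 for those with a mean of 1000 or more. All 31 standard subunits of the 20S and 19S measured here (14 and 17 genes) were called lower, and in all 31 every selinexor library lay below every DMSO library, which held for 32.9% of all genes. Summed over the 39 genes, their share of all normalised counts was 0.508% ± 0.0060 with DMSO and 0.349% ± 0.0073 with selinexor (SD, n = 3). Without selinexor replicate 1, 35 members were called lower and 1 higher, and the median was -0.48. The median of the 20S genes was -0.67 with it and -0.47 without it, that of the 19S genes -0.59 in both cases, and that of the activators 0.013 and 0.0067.

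**Figure D1:**
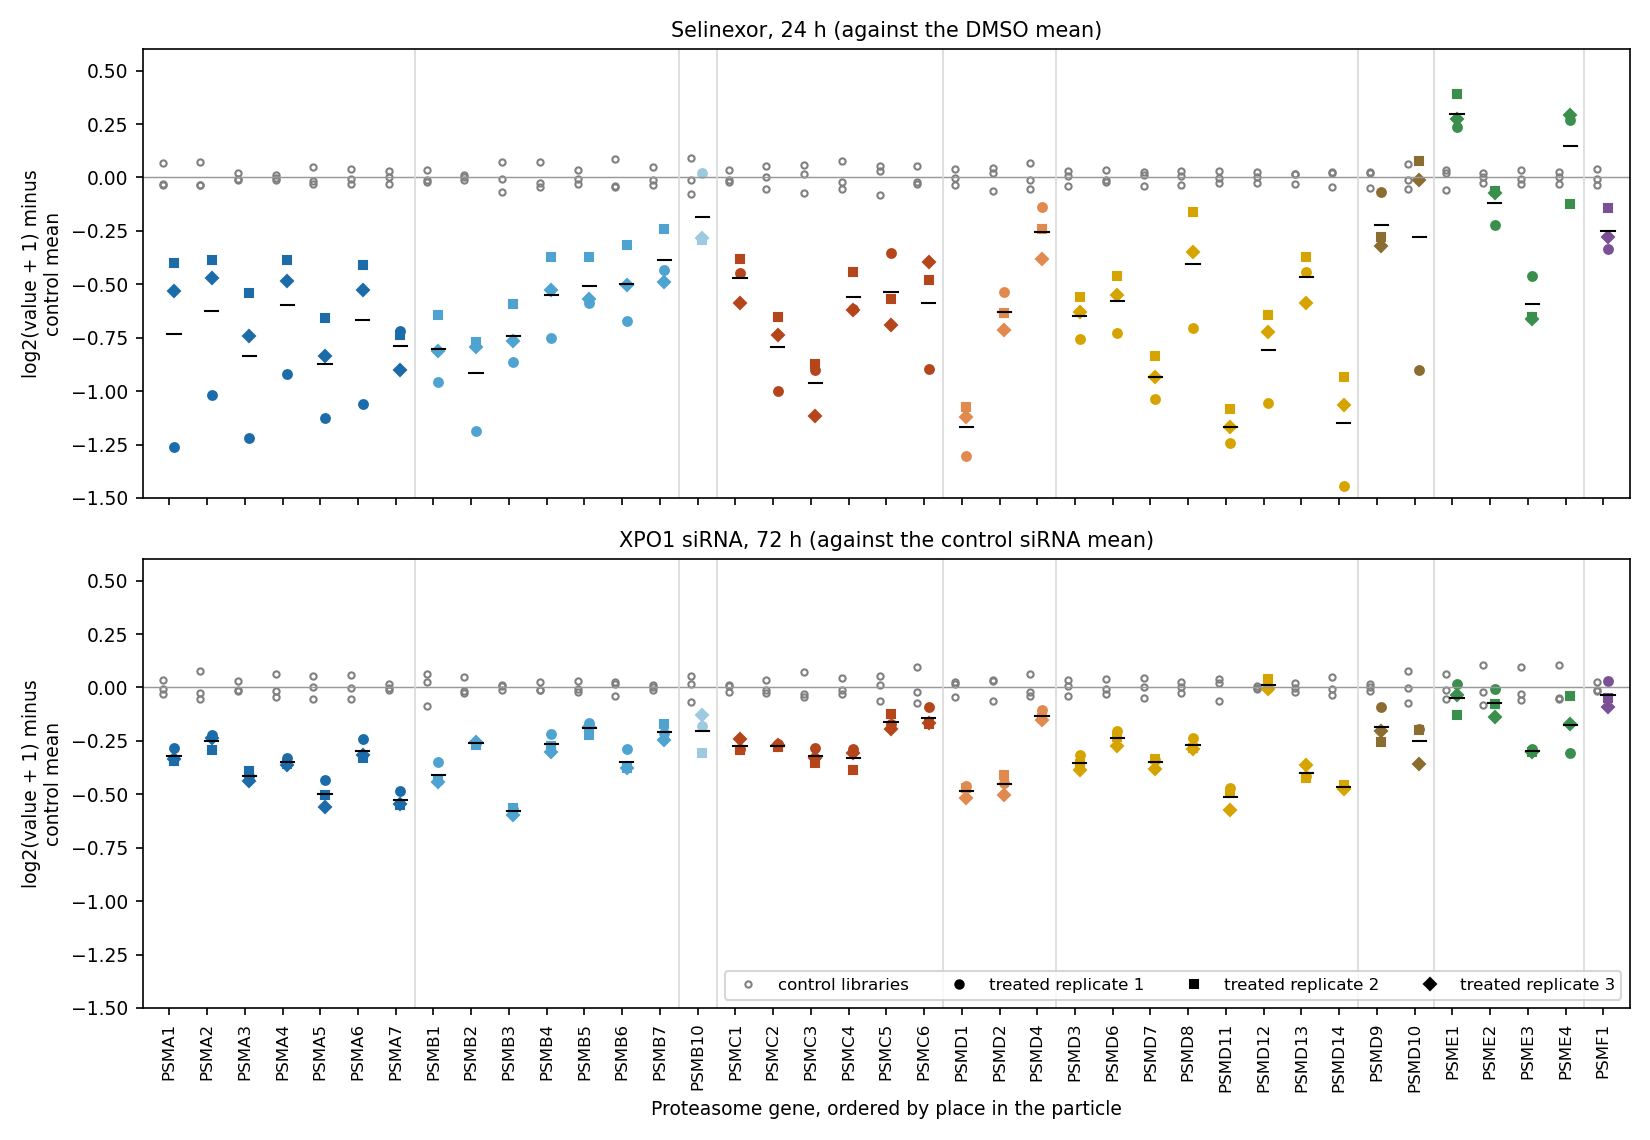
Each proteasome gene (horizontal axis, ordered by place in the particle and coloured by class) by library: log2(value + 1) minus the mean of its control group, for selinexor (upper panel) and XPO1 siRNA (lower panel). Open points are control libraries, filled points treated replicates 1 (circle), 2 (square) and 3 (diamond), and the dash is the treated mean; the selinexor points are lower and more spread than those of XPO1 siRNA, and PSMD12 lies at 0 in the lower panel only.

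In the alpha ring all 7 genes were lower with selinexor, with a median of -0.73. PSMA5 fell most: it read 4253, 4455 and 4222 with DMSO and 1974, 2730 and 2414 with selinexor (-0.87, SE 0.12, adjusted p = 5.20e-04). The groups were well apart, with replicate 1 the lowest. PSMA7, the alpha subunit that fell by 0.79, was the exception to that order, reading 7362, 7679 and 7540 with DMSO and 4566, 4513 and 4028 with selinexor (SE 0.08, adjusted p = 1.18e-04). In 6 of the 7 alpha genes replicate 1 was the lowest selinexor library. The median over these 7 genes of replicate 1 minus the mean of replicates 2 and 3 was -0.58. Replicate 1 was also the lowest for 6 of the 7 standard beta genes (median difference -0.23) and 7 of the 8 lid genes (-0.19). PSMA1 had the widest spread of the alpha ring, at 1721 in replicate 1 and 3132 and 2856 in the others against 4033 to 4322 with DMSO (-0.73, adjusted p = 0.0158). Its change was -0.47 without replicate 1, and PSMA2 and PSMA6 went from -0.62 and -0.67 to -0.43 and -0.47. All 7 alpha genes were still called lower without that library, with a median of -0.47. PSMA1 was not called without DMSO replicate 2 (adjusted p = 0.0598).

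The 7 standard beta genes were also all lower, with a median of -0.55 (-0.47 without replicate 1). PSMB2, a beta subunit without an active site, fell most, from 4508, 4581 and 4563 with DMSO to 1999, 2672 and 2626 with selinexor (-0.92, SE 0.12, adjusted p = 3.75e-04). PSMB3, a structural beta subunit, read 3321, 3659 and 3460 with DMSO and 1913, 2303 and 2048 with selinexor (-0.74, SE 0.09, adjusted p = 3.51e-04). Both had no overlap between groups. The 3 genes of the active sites changed less than these. PSMB5, the chymotrypsin-like site and the main target of bortezomib, went from 6940, 7265 and 7058 to 4709, 5469 and 4782 (-0.51, SE 0.08, adjusted p = 0.00148). PSMB6, the caspase-like site, went from 3890, 4258 and 3900 to 2519, 3225 and 2831 (-0.50, SE 0.10, adjusted p = 0.00471). PSMB7, the trypsin-like site, had the smallest change of the ring (-0.39, SE 0.09, adjusted p = 0.00720), from 4503, 4786 and 4576 to 3418, 3912 and 3292. In all 3 the groups stayed apart.

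PSMB10, which replaces PSMB7 in the immunoproteasome of interferon-exposed cells, was not called. It read 367, 326 and 341 with DMSO and 349, 281 and 283 with selinexor, with replicate 1 inside the DMSO range (-0.18, SE 0.12, adjusted p = 0.231). Without that library it was called lower (-0.29, adjusted p = 0.0128).

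All 6 ATPases of the 19S base were lower, with a median of -0.57 (-0.58 without replicate 1). PSMC3 fell most, from 5602, 6146 and 5958 to 3161, 3215 and 2718 (-0.96, SE 0.09, adjusted p = 7.73e-05). PSMC2 followed at -0.80, and PSMC1, taken without its retrocopies, had the smallest change at -0.47. With the copies added PSMC1 changed by -0.56, more than PSMC5 at -0.54. All 6 kept the groups apart. In contrast to the alpha ring, replicate 1 was the lowest selinexor library for 2 of the 6 ATPases. Replicate 1 minus the mean of the others ran from -0.46 (PSMC6) to 0.28 (PSMC5), with a median over genes of -0.02. The median ATPase within each library was still lowest in replicate 1, at -0.75 against -0.52 in replicate 2 and -0.65 in replicate 3.

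Of the 3 other base genes, PSMD1, a large scaffold of the base, read 7797, 8214 and 7976 with DMSO and 3234, 3794 and 3680 with selinexor (-1.17, SE 0.09, adjusted p = 1.92e-05). PSMD2, its partner scaffold, fell by 0.63 and PSMD4, the ubiquitin receptor, by 0.25. PSMD4 is the weakest call among the 31 standard subunits (9933, 10781 and 10199 against 9370, 8700 and 7915, adjusted p = 0.0416). PSMD4 was not called when any of the DMSO replicates, selinexor replicate 2 or selinexor replicate 3 was left out (adjusted p up to 0.165), nor at equal totals (adjusted p = 0.135).

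Falls of more than 2-fold were also seen in the lid. PSMD11 read 4352, 4516 and 4422 with DMSO and 1868, 2086 and 1971 with selinexor, 2.24-fold lower (-1.17, SE 0.08, adjusted p = 1.14e-05). PSMD14 read 4316, 4331 and 4128 with DMSO and 1565, 2231 and 2032 with selinexor (-1.15, SE 0.13, adjusted p = 1.82e-04). For both, every selinexor library was far below every DMSO library. All 8 lid genes were lower, with a median of -0.73 (-0.64 without replicate 1). PSMD7, the inactive partner of PSMD14, fell by 0.94 and PSMD12, a scaffold of the lid, by 0.81. At the other end, PSMD13 fell by 0.47 and PSMD8 by 0.41. PSMD8 was not called without any 1 of the DMSO replicates or without selinexor replicate 3 (adjusted p up to 0.103).

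The 2 chaperones that help assemble the base were not called. PSMD9 read 932, 933 and 887 with DMSO and 875, 755 and 734 with selinexor (-0.22, SE 0.10, adjusted p = 0.0860). The groups did not overlap, and PSMD9 was called lower without selinexor replicate 1 (adjusted p = 7.69e-04). PSMD10, known as the oncoprotein gankyrin, read 1087, 1031 and 1002 with DMSO and 557, 1096 and 1032 with selinexor (-0.28, SE 0.23, adjusted p = 0.342). Its difference is that of 1 library: without selinexor replicate 1 the value was 0.03 (adjusted p = 0.660).

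The activators did not move together. PSME1, the alpha subunit of PA28, was the 1 member called higher: it read 677, 721 and 715 with DMSO and 828, 922 and 851 with selinexor (0.30, SE 0.09, 1.23-fold higher, adjusted p = 0.0213). The groups were apart, but PSME1 was not called without DMSO replicate 1, 2 or 3 or without selinexor replicate 2 (adjusted p 0.0595 to 0.0960). PSME2, the beta subunit of the same cap, read 785, 794 and 769 with DMSO and 671, 748 and 743 with selinexor and was not called (-0.12, SE 0.09, adjusted p = 0.282). PSME3, the nuclear PA28 gamma, fell like the standard subunits, from 5828, 5913 and 6102 to 4313, 3776 and 3762 (-0.59, SE 0.08, adjusted p = 6.33e-04). PSME4, which encodes PA200, read 3563, 3696 and 3644 with DMSO and 4386, 3330 and 4447 with selinexor (0.15, SE 0.12, adjusted p = 0.330). Its replicates 1 and 3 lay above DMSO and replicate 2 below, and without replicate 2 it was called higher (0.28, adjusted p = 0.0217). PSMF1 read 1790, 1887 and 1827 with DMSO and 1453, 1664 and 1511 with selinexor (-0.25, SE 0.08, adjusted p = 0.0367). The groups of PSMF1 did not overlap, but it was not called without DMSO replicate 1, 2 or 3 or without selinexor replicate 3 (adjusted p up to 0.142), nor at equal totals (adjusted p = 0.0583).

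**Figure D2:**
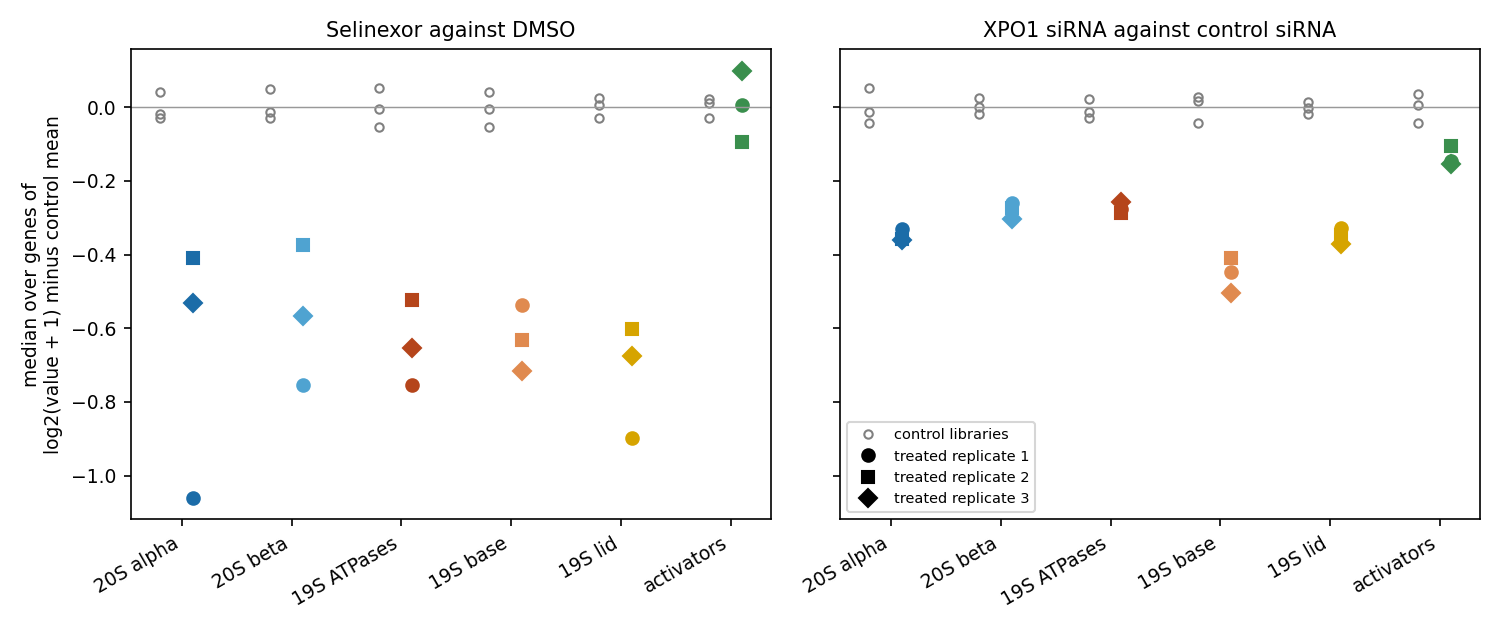
Median over the genes of each class of log2(value + 1) minus the control mean (vertical axis), 1 point per library, for selinexor (left) and XPO1 siRNA (right). Open points are control libraries and filled points treated replicates. Selinexor replicate 1 (circle) is far below the others for the alpha ring. It is also the lowest for the beta ring, the ATPases and the lid, and not for the base. The activators lie near 0 with selinexor.

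Most proteasome genes were also lower after knockdown of XPO1. Of the 39 genes, 35 were called lower (89.7%) and 0 higher, where 28.6% of all genes were called lower and 25.9% higher (41.8% and 28.9% among genes with a mean of 1000 or more). At an unadjusted p under 0.05 in limma the count higher was also 0, and the highest member, PSMD12, changed by 0.01. The median was -0.27 (1.21-fold lower), against 0.00 for all genes and -0.05 for genes with a mean of 1000 or more. The 20S median was -0.32, that of the 19S -0.27 and that of the activators -0.12. Their summed share of normalised counts was 0.463% ± 0.00026 with control siRNA and 0.399% ± 0.0014 with XPO1 siRNA (SD, n = 3). When the libraries were rescaled to equal totals, 29 were called lower and 1 higher, against 31 and 1 with selinexor under the same rescaling (PSMB10, PSMC5, PSMC6, PSMD4, PSMD9 and PSME4 lost the call and PSMD12 gained it in the knockdown). The 19S median with knockdown was then -0.18 and the 20S median -0.23.

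In the 20S core all 15 genes were lower, PSMB10 included. PSMB3 fell most of all members, from 4460, 4472 and 4400 with control siRNA to 2998, 3004 and 2937 with XPO1 siRNA, 1.49-fold lower (-0.58, SE 0.03, adjusted p = 1.11e-08). PSMA7 led the alpha ring, going from 9028, 8918 and 8845 to 6374, 6103 and 6112 (-0.53, SE 0.03, adjusted p = 1.86e-08). Their libraries were tightly grouped and did not overlap. Of the active site genes, PSMB6 changed by -0.35 (adjusted p = 3.98e-06), slightly more than the 20S median of -0.32. Smaller changes than that median were seen in PSMB7 (-0.21, adjusted p = 1.29e-04) and PSMB5 (-0.19, adjusted p = 2.12e-04). PSMB5 read 9201, 9284 and 9552 with control siRNA and 8322, 8017 and 8230 with XPO1 siRNA. PSMB10 read 404, 371 and 393 with control siRNA and 343, 314 and 356 with XPO1 siRNA (-0.21, SE 0.08, adjusted p = 0.0337). The groups of PSMB10 were apart, yet it was not called without control siRNA replicates 1 or 3 or XPO1 siRNA replicates 1 or 2, or at equal totals (adjusted p up to 0.223).

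In the 19S particle 18 of 19 genes were lower. PSMC4 led the ATPases (-0.33, SE 0.04, adjusted p = 8.44e-06), from 4437, 4379 and 4613 to 3667, 3418 and 3612. PSMC6 had the smallest change of them (-0.14, adjusted p = 0.0225) and was not called without control siRNA replicate 2, XPO1 siRNA replicate 2 or XPO1 siRNA replicate 3 (adjusted p up to 0.0907), nor at equal totals (adjusted p = 0.361). PSMD1 again led the base, reading 7776, 7462 and 7834 with control siRNA and 5591, 5555 and 5363 with XPO1 siRNA (-0.48, SE 0.03, adjusted p = 7.17e-08). PSMD11 led the lid, from 4007, 3774 and 4058 to 2849, 2799 and 2648, 1.43-fold lower (-0.51, SE 0.04, adjusted p = 2.62e-07). PSMD14 followed at -0.47 and PSMD13 at -0.40. The groups of these genes did not overlap.

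PSMD12 was the 1 standard subunit that was not called lower. It read 6698, 6715 and 6758 with control siRNA and 6705, 6910 and 6699 with XPO1 siRNA (0.01, SE 0.03, adjusted p = 0.809). The groups overlapped. At equal totals PSMD12 was called higher (0.10, adjusted p = 0.0137). The base chaperones were both called lower here, PSMD10 from 1255, 1391 and 1318 to 1154, 1149 and 1030 (-0.25, SE 0.06, adjusted p = 0.00202). PSMD9 went from 1105, 1113 and 1087 to 1033, 923 and 956 (-0.18, SE 0.05, adjusted p = 0.00844). PSMD9 was not called without XPO1 siRNA replicate 2 (adjusted p = 0.0525) or at equal totals (adjusted p = 0.131).

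Among the activators PSME3 fell from 5749, 5164 and 5266 to 4415, 4371 and 4372 (-0.30, SE 0.04, adjusted p = 3.65e-05). PSME4 was called lower (-0.17, SE 0.06, adjusted p = 0.0260), reading 4386, 3941 and 3935 with control siRNA and 3298, 3966 and 3623 with XPO1 siRNA. Its groups overlapped, and PSME4 was not called without control siRNA replicate 1 or XPO1 siRNA replicates 1 or 3, nor at equal totals (adjusted p up to 0.3003). PSME1 read 1319, 1430 and 1356 against 1383, 1251 and 1335 (-0.05, SE 0.05, adjusted p = 0.439). PSME2 read 935, 1020 and 898 against 946, 899 and 863 (-0.07, SE 0.06, adjusted p = 0.310). For PSMF1 the values were 2086, 2022 and 2032 against 2088, 1980 and 1923 (-0.04, SE 0.04, adjusted p = 0.497). The groups of these 3 genes overlapped, and their sign turned at equal totals (0.04, 0.02 and 0.05).

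**Figure D3:**
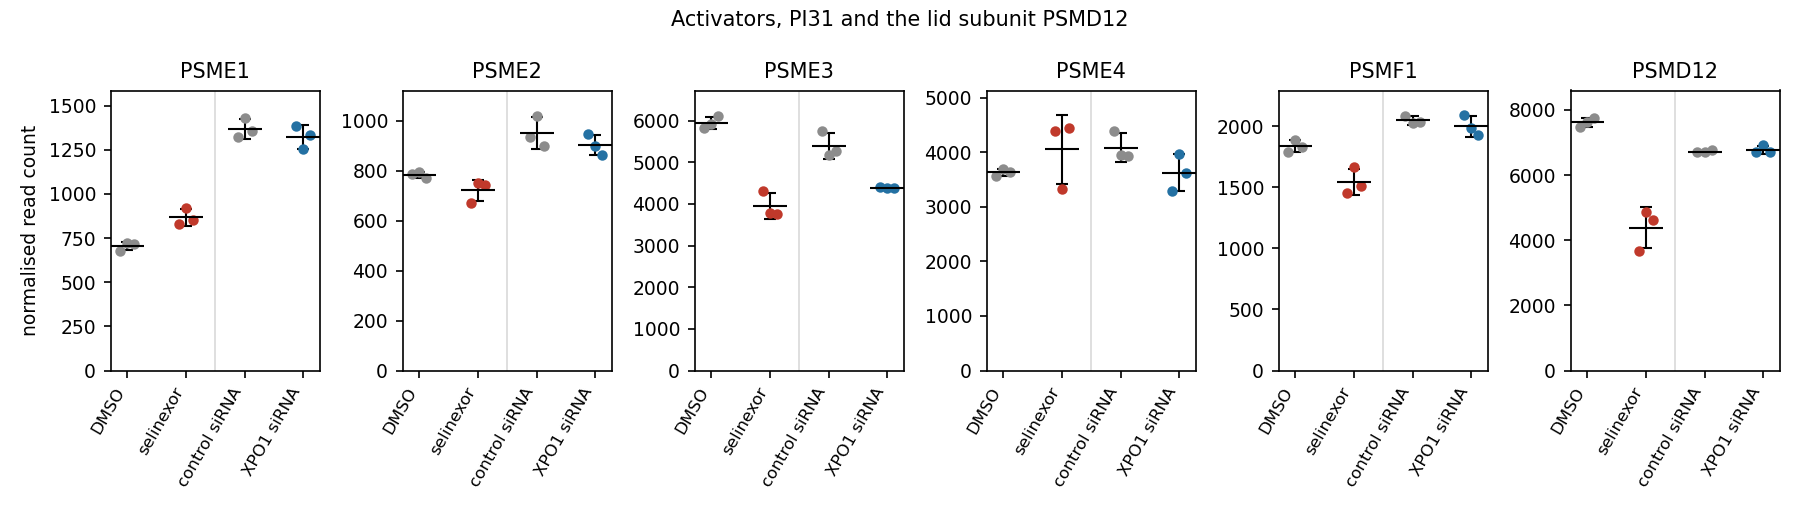
Normalised read count (vertical axis, from 0) of the 4 activator genes, PSMF1 and PSMD12 in each library (points) with the group mean and SD (bars, n = 3); the vertical line parts the 2 tables, whose levels are not compared. PSME1 is higher with selinexor than with DMSO, and PSMD12 is lower with selinexor while its control and XPO1 siRNA values coincide.

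Between the comparisons, 31 members were called lower in both, 30 standard subunits and PSME3, where 18.3% of the 17332 genes tested in both were. The comparisons share no libraries. PSMD12 and PSMF1 were called lower with selinexor and not with knockdown. PSMB10, PSMD9, PSMD10 and PSME4 were called lower with knockdown and not with selinexor, and PSME2 was called in neither. Over the 31 standard subunits the order of the changes was loosely shared (Spearman's rho 0.53, Pearson's r 0.51 across genes, which are not independent replicates and share libraries). PSMD11, PSMD1 and PSMD14 were among the deepest falls in both.

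The difference of the effects was tested directly in 1 fit of all 12 libraries. It was more negative with selinexor for 17 members (43.6%) and more positive for 1, where 20.2% and 11.6% of all genes were called so (36.1% and 6.49% among genes with a mean of 1000 or more). The 43.6% is thus not far above the share among genes at the level of most members. The median difference was -0.29 for the members, -0.07 for all genes and -0.21 for genes with a mean of 1000 or more. The count of 17 rests on single libraries, being 25 without selinexor replicate 1, 28 without selinexor replicate 2 and 12 without DMSO replicate 2 or 3. The 6 largest differences were in PSMD12 (-0.82, SE 0.12, adjusted p = 2.32e-04), PSMD1 (-0.68, SE 0.09, adjusted p = 9.44e-05), PSMD14 (-0.68, SE 0.14, adjusted p = 0.00246), PSMB2 (-0.65, SE 0.13, adjusted p = 0.00170), PSMD11 (-0.65, SE 0.08, adjusted p = 8.29e-05) and PSMC3 (-0.64, SE 0.10, adjusted p = 3.53e-04). By class, 11 of the 19 genes of the 19S (57.9%) and 5 of the 15 of the 20S (33.3%) were called more negative. The 20S share is under the 36.1% of genes with a mean of 1000 or more. Without selinexor replicate 2 these counts were 13 and 13, and without selinexor replicate 1 they were 15 and 9. The classes were not tested against each other. PSMB3 was not called (-0.16, SE 0.10, adjusted p = 0.211), and was called without selinexor replicate 2 (adjusted p = 0.0339). PSMC1 was not called either (-0.20, SE 0.09, adjusted p = 0.105). With its retrocopies added PSMC1 was called more negative (-0.32, adjusted p = 0.0126). PSME1 was the member with the more positive effect of selinexor (0.35, SE 0.10, adjusted p = 0.0144). PSMD10 was not called (-0.03), but without selinexor replicate 1 its difference was 0.28 (adjusted p = 0.0115), and without selinexor replicate 2 that of PSME4 was called more positive (adjusted p = 0.00468). Agent, time and delivery differ between the comparisons and cannot be told apart here.

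**Figure D4:**
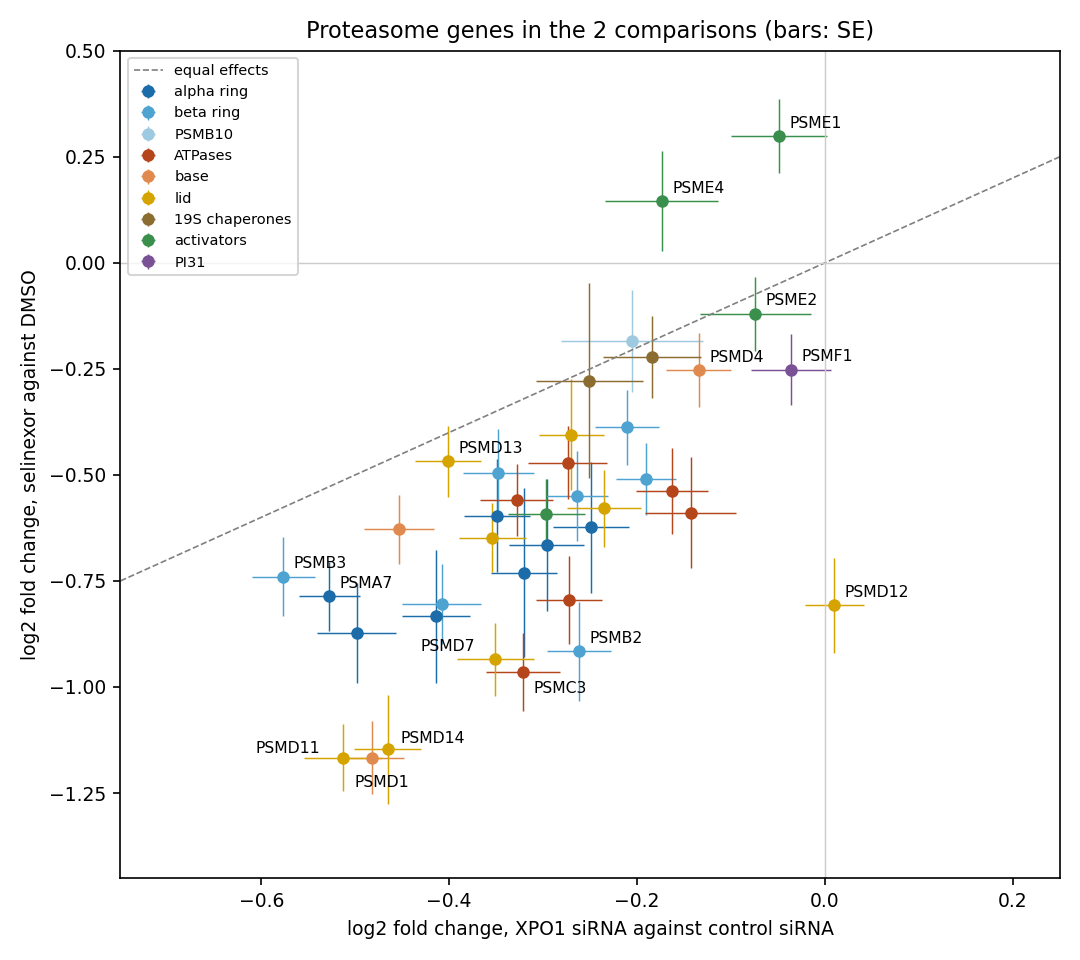
Log2 fold change of each member with XPO1 siRNA (horizontal axis) and with selinexor (vertical axis), with SE bars and colours by class; the dashed line marks equal effects and the axes have different scales. Most genes lie below the line, PSMD11, PSMD1 and PSMD14 at the lower left, PSMD12 at 0 on the horizontal axis and PSME1 above 0 on the vertical axis. The median difference over all genes with a mean of 1000 or more was also negative (-0.21).

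Other genes of the pathway were taken as lists. Beside their counts, 26.3% of all genes were called lower with selinexor and 28.6% with knockdown. Among genes with a mean of 1000 or more these shares were 43.8% and 41.8%. Of 7 subunits and partners outside the naming rule, 6 were lower and 0 higher in each comparison, with medians of -0.49 and -0.20. SHFM1, the small lid protein also called SEM1, went from 2928 ± 78.9 to 1771 ± 231 with selinexor (-0.73, adjusted p = 6.73e-04) and from 3430 ± 16.7 to 2574 ± 144 with knockdown (-0.42). The ubiquitin receptor ADRM1 changed by -0.71 and -0.35, and UCHL5, the deubiquitinase it recruits, by -0.75 and -0.18. Of 6 assembly factors of the core and base, 5 were lower and 0 higher in each comparison, with medians of -0.62 and -0.31. PSMG1, a chaperone of the alpha ring, fell more than any member, from 1267 ± 50.5 to 503 ± 85.2 with selinexor (-1.35, 2.54-fold lower) and from 1446 ± 39.8 to 876 ± 19.6 with knockdown (-0.72, 1.65-fold lower). POMP, which matures the beta ring, changed by -0.76 and -0.37.

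Of 8 regulators of proteasome gene transcription, 3 were lower and 1 higher with selinexor, and 4 were lower and 4 higher with knockdown. Over all genes the shares called were 26.3% lower and 22.9% higher with selinexor and 28.6% and 25.9% with knockdown, and with so few genes nothing particular to the list can be read from its counts. NFYB, a subunit of the CCAAT-binding factor, went from 1745 ± 18.7 to 932 ± 173 with selinexor (-0.92, adjusted p = 8.08e-04) and changed by -0.33 with knockdown. NFE2L2, the factor of the antioxidant response, was higher in both (0.30 and 0.28), and KEAP1, which targets it for degradation, was lower in both (-0.49 and -0.12, adjusted p = 0.0326 with knockdown). NFE2L1, the factor of the proteasome recovery response, was called higher with knockdown (0.17, adjusted p = 0.00459) and not called with selinexor (-0.24, adjusted p = 0.0827).

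Genes up and down stream of the particle were counted in the same way. Over all genes 26.3% were called lower and 22.9% higher with selinexor, and 28.6% and 25.9% with knockdown. Among genes with a mean of 1000 or more the shares lower were 43.8% and 41.8%. Of 6 genes for ubiquitin and its activating enzymes, 0 were called with selinexor by limma (0 also at an unadjusted p under 0.05), and 4 were lower with knockdown, among them UBA6 (-0.19) and RPS27A (-0.16). Of 9 shuttle factors and p97 genes, 7 were lower with selinexor and 7 lower and 1 higher with knockdown. VCP, the p97 segregase, went from 18146 ± 608 to 12404 ± 665 with selinexor (-0.55) and from 18365 ± 405 to 14962 ± 313 with knockdown (-0.30). UFD1L, its cofactor, changed by -0.79 and -0.47. Of 9 genes of the COP9 signalosome, a complex built like the lid, 5 were lower with selinexor and 7 with knockdown, with 0 higher in either. COPS3 led these in both (-0.88 and -0.42). With so few genes, nothing particular to the COP9 list is read from its 5 of 9 with selinexor, beside that 43.8%.

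Interferon and antigen presentation genes, which drive or accompany the immunoproteasome, were called in both directions. Of 14 listed 9 were tested: 2 were lower and 3 higher with selinexor, and 4 lower and 3 higher with knockdown. With selinexor these counts are close to the 26.3% and 22.9% over all genes. With knockdown the shares over all genes were 28.6% lower and 25.9% higher. With so few genes, nothing particular to the list is read from the counts of either comparison. STAT2, a transcription factor of the interferon response, was higher in both (0.48 and 0.45). NLRC5, the activator of class I antigen presentation, went from 117 ± 16.2 to 60.1 ± 9.20 with selinexor (-0.96). Most of the 9 adrenergic neuroblastoma markers tested went the other way from the proteasome genes: 7 of 9 were higher with selinexor and 6 of 9 with knockdown, with 0 lower by limma (1 and 0 at an unadjusted p under 0.05). Over all genes 22.9% were called higher with selinexor and 25.9% with knockdown (14% and 28.9% among genes with a mean of 1000 or more). ISL1, a neuronal transcription factor, rose by 0.92 and 1.13, and CHGA, a granule protein, by 1.02 and 0.92. Of 4 tested markers of other cells, CDH5 was higher in both at low levels, from 28.8 to 60.8 with selinexor and from 34.5 to 79.0 with knockdown, and COL1A1 was lower with knockdown (-0.30). Their part in the proteasome results was not tested.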

How the data were processed

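IMR5 total RNA was sequenced from 12 strand-specific libraries, per the labels' protocols, and sample titles gave group and replicate. The submitters' processing notes name STAR 2.7.3a, Partek, DESeq2 and hg19. Not given in the sources used here are the annotation and the counting options. Values deposited by the authors are a signal, in which the counts of each gene were scaled by library size factors within a table. Between 62.0% and 66.8% of low values were whole multiples of a step per library within 0.02 (4% by chance), so whole reads were not recovered, no count model was fitted, and depth was estimated from the steps. The knockdown table held 3 further per-sample columns that matched no sample and were not used.

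The test was limma (version 3.58.1, under R 4.3.3, with lmFit and trended eBayes) on genes with a mean of 10 or more, after adding 1 and taking log2. P-values are two-sided with Benjamini-Hochberg adjustment over all genes, at a threshold of 0.05. The fold changes understate the change of low genes. The difference of effects used 4 group means in 1 fit over 17332 genes. These steps were tested on simulated data, in which few genes changed and all libraries had the same dispersion. A pass was required only for changes larger than those of most members. The simulation does not cover the many genes called here or the wider spread of the selinexor libraries. Replicate libraries of a group correlated at 0.974 to 0.995 and shared at most 33 identical values, so each counted once. The members and gene lists were chosen with earlier results of these data known. Every member could be named; full statistics were given for PSMD11, PSMB3, the largest called fall and rise of each class, the catalytic subunits, the activators, PSMF1, members not called and the 6 largest differences; of other lists, up to 3 called genes with the smallest p, of which 1 is not reported here. KEAP1, NFE2L1, POMP, COL1A1 and others in those lists were named after their values were seen where they fall outside that rule. Retrocopies added to the parent gene were an alternative chosen after seeing the data. Python 3.11.15 with pandas 2.3.3 made the tables and matplotlib 3.10.9 the figures.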

Additional observations from a re-analysis of the deposited data

Results flagged for a closer look

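The effects of selinexor at 24 h and of XPO1 knockdown at 72 h differed for 18 members by limma's test of the difference at an adjusted p under 0.05, given here as the log2 change with selinexor minus that with knockdown. Of the 39 members, 43.6% were more negative and 2.56% more positive. Over all genes these shares were 20.2% and 11.6%, and among genes with a mean of 1000 or more 36.1% and 6.49%. In the 20S core the differences were -0.37 for PSMA5, -0.26 for PSMA7, -0.40 for PSMB1, -0.65 for PSMB2 and -0.32 for PSMB5. Among the ATPases they were -0.52 for PSMC2, -0.64 for PSMC3, -0.37 for PSMC5 and -0.45 for PSMC6. In the rest of the 19S they were -0.68 for PSMD1, -0.29 for PSMD3, -0.34 for PSMD6, -0.58 for PSMD7, -0.65 for PSMD11, -0.82 for PSMD12 and -0.68 for PSMD14. Among the activators they were 0.35 for PSME1 and -0.30 for PSME3. Some of these calls rest on single libraries. PSMA5 was not called without any 1 of the DMSO, control siRNA or XPO1 siRNA libraries or without selinexor replicate 3, and PSMC6 without any 1 of the DMSO or XPO1 siRNA libraries or control siRNA replicates 1 or 3. PSMA7 was not called without DMSO replicates 2 or 3, any 1 control siRNA library or XPO1 siRNA replicate 1. PSMC5 was not called without DMSO replicates 2 or 3, control siRNA replicate 2 or XPO1 siRNA replicate 2, and PSME3 without DMSO replicates 2 or 3, control siRNA replicates 2 or 3 or any 1 XPO1 siRNA library.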

How the results depend on the processing

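Counts of called members were the same with a pseudocount of 0.5 or 5, with no filter, with a minimum mean of 50 and with a trimmed-mean rescaling: 33 lower and 1 higher with selinexor, 35 lower and 0 higher with knockdown, and 17 and 1 for the difference. Without the intensity trend the counts lower were 30, 33 and 15. With retrocopies added to the parent gene they were 33, 35 and 18, PSMC1 gaining the call for the difference. With libraries rescaled to equal totals they were 31, 29 and 22, 1 member was higher with knockdown, and the knockdown medians were -0.23 for the 20S core, -0.18 for the 19S and -0.034 for the activators. This rescaling moved PSME1 to 0.041, PSME2 to 0.016 and PSMF1 to 0.054 with knockdown. No clear pairing by replicate number was seen. Correlations of same-numbered deviations ran from -0.042 to 0.119 for selinexor and from -0.104 to -0.020 for knockdown. Not every sample correlated best with its own number. With 3 libraries per group these values cannot exclude a weak pairing. With the replicate block 31, 35 and 16 members were lower: PSMD4 (adjusted p = 0.0650) and PSMF1 (0.0579) lost the call with selinexor, and PSMA7 (0.0516) for the difference.

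Leaving out 1 library at a time gave 29 to 35 members lower and 0 to 1 higher with selinexor, 32 to 34 lower with knockdown, and 12 to 28 more negative and 1 to 2 more positive for the difference. The selinexor median ran from -0.79 to -0.47 for the 20S (-0.67 with all libraries), from -0.64 to -0.56 for the 19S and from -0.035 to 0.053 for the activators. The knockdown median ran from -0.29 to -0.28 for the 19S and from -0.16 to -0.10 for the activators. PSMD10 ran from -0.45 to 0.033 with selinexor, and PSMD12 from -0.0046 to 0.018 with knockdown. For the difference, PSMB10 ran from -0.082 to 0.075, PSMD8 from -0.26 to 0.014, PSMD9 from -0.12 to 0.010, PSMD10 from -0.20 to 0.28 and PSME2 from -0.10 to 0.0047. The cause was not tested. With 3 libraries per group and whole reads not recovered, counting error could not be separated from other spread between libraries.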
